A study of Bos taurus with 10 samples.

Results

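Sperm small RNA from 3 samples labelled high for bull fertility was set against that from 3 samples labelled low, out of 10 sperm samples in the series. The members were the 6 samples whose titles carry the high or low bull fertility index. The data were all 978 miRNA names of the bull fertility comparison and the high and low bull fertility values of 184397 rows of tRNA-derived small RNAs (tsRNAs). No sample had an added treatment. Breed and age are not stated in the labels. Of the 3 high bull fertility samples, 1 was also labelled high and 1 low for the fertility of daughters, while 1 carried the bull fertility label alone. The 3 low bull fertility samples carried no daughter label. Nothing in the labels ties the 6 samples to separate bulls, so the p-values measure only the spread between these samples.

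Mature sperm make little new RNA, and their small RNAs are left from spermatogenesis or taken up from vesicles in the epididymis. miRNAs are short guides that lower the output of matching messenger RNAs, and a miRNA hairpin can give a product from its 5′ arm (-5p) and its 3′ arm (-3p). tsRNAs are cut from tRNAs, and 5′ fragments of a few tRNAs, glycine and glutamate tRNAs among them, are a known major class of mammalian sperm small RNA. In mice, sperm tRNA fragments respond to the diet of the father.

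Neither class held a member past the threshold, an adjusted p under 0.05, between high and low bull fertility. The authors' Wald test in the authors' deposited table left 0 of 964 miRNAs past it (percent called 0.0), and the smallest Benjamini-Hochberg adjusted p was 0.163. At an unadjusted p under 0.05 the authors' deposited table held 45 miRNAs (4.67%), of which 28 (2.9%) were higher and 17 (1.76%) lower in the high group. Adjusting the tsRNA p-values of the authors' deposited table by the Benjamini-Hochberg method left 0 of 98760 rows past the threshold (percent called 0.0), and 246 (0.249%) had an unadjusted p under 0.05. The tables do hold fold changes with their errors, group values of tsRNAs and, for many fragments, values of single high bull fertility libraries. Fold changes below are log2 values of high over low bull fertility, so a negative value is lower with high bull fertility, and the value after ± is the standard error (SE). The miRNA table does not name the numerator of its fold change. Its sign was inferred from 2 miRNAs whose reads appear to lie in 1 high bull fertility library, so every miRNA direction rests on that inference.

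The miRNA pool was led by miR-375, first described in pancreatic islets. It had a mean normalized count of 6860 over the 6 samples in the authors' deposited table, with a fold change of 0.29 and a 95% interval from -0.56 to 1.14. The 12 most abundant miRNAs held 24.1% of the summed means, and 9 of them lay within 0.3 of a fold change of 0 in the authors' deposited table. The exceptions were miR-34c, a germ cell miRNA, at -1.34 ± 0.82, miR-186 at -0.76 ± 0.54 and miR-12030 at -0.72 ± 0.68 in the authors' deposited table. Their intervals all included 0.

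**Figure D1:**
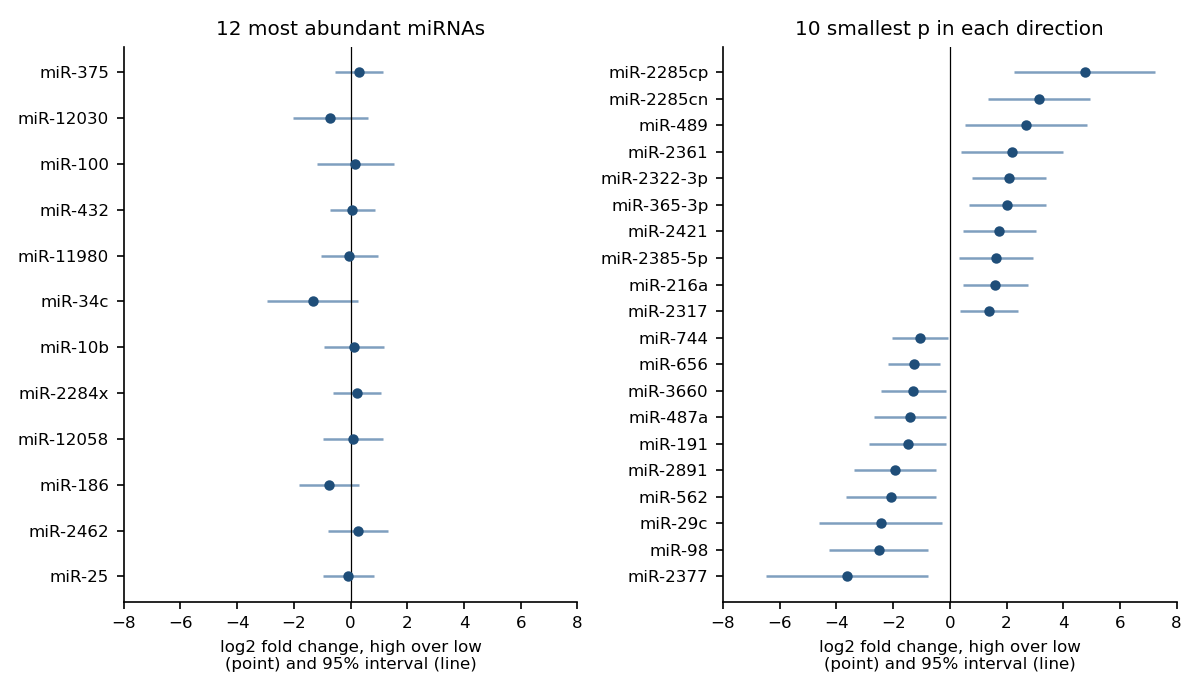
Log2 fold changes of high over low bull fertility (points) with 95% intervals (lines) for the 12 most abundant miRNAs (left) and the 10 miRNAs of smallest p in each direction (right). The abundant miRNAs all have intervals that include 0. Those on the right were chosen by smallest unadjusted p, all under 0.05 in the authors' Wald test. Their unadjusted intervals exclude 0 because of that choice, with miR-2285cp at 4.76 and miR-2377 at -3.62 as the widest departures.

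Over all 967 miRNAs with a fold change, 489 were higher and 478 lower, and the median fold change was 0.01. The median SE was 0.57, which gave a 95% half-interval of 1.11, or 2.16-fold. For 231 miRNAs with a mean of at least 100 the median SE was 0.48 and the half-interval 1.93-fold. In that class, 38 miRNAs (16.5%) had an interval that stayed within 1 log2 unit of 0, against 54 (5.58%) of all miRNAs.

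The 6 smallest errors among miRNAs with a mean of at least 100 were led by miR-2463, at 0.05 with an interval from -0.69 to 0.80 in the authors' deposited table. It was followed by miR-149-3p at 0.32 ± 0.38, miR-10167-3p at -0.12 ± 0.38 and miR-769 at -0.48 ± 0.39 in the authors' deposited table. For miR-331-3p the authors' deposited table gave -0.24 ± 0.39 and for miR-2392 0.18 ± 0.39. All 6 intervals included 0.

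**Figure D2:**
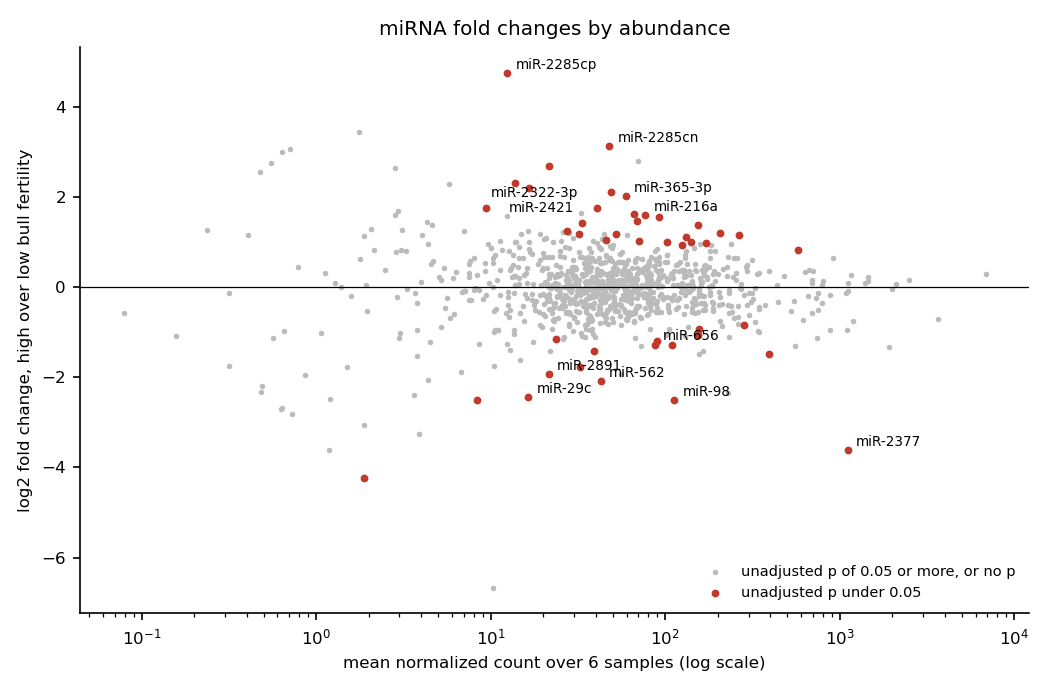
Log2 fold change of high over low bull fertility against mean normalized count (log axis) for 967 miRNAs, with the 45 of unadjusted p under 0.05 in red. Points spread evenly about 0 and widen toward low counts, where the median SE was 1.37 below a mean of 10 against 0.48 between 100 and 1000.

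Of the miRNAs higher with high bull fertility, the smallest p-values belonged to miR-2285cp and miR-2285cn, members of a large family found in ruminants. In the authors' deposited table miR-2285cp stood at 4.76 ± 1.26 with a mean of only 12.4, and miR-2285cn at 3.13 ± 0.92 with a mean of 47.9. Next in the authors' deposited table came miR-2322-3p at 2.10 ± 0.67, miR-365-3p at 2.02 ± 0.69 and miR-216a at 1.61 ± 0.58. The list went on with miR-2421 at 1.75 ± 0.65, miR-2317 at 1.38 ± 0.52 and miR-489 at 2.69 ± 1.10 in the authors' deposited table. It closed with miR-2385-5p at 1.62 ± 0.67 and miR-2361 at 2.20 ± 0.92 in the authors' deposited table. Only miR-2317 of these 10 had a mean above 100, at 154.

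Lower with high bull fertility, miR-98, a let-7 family member, stood at -2.51 ± 0.89 with a mean of 113 in the authors' deposited table. The most abundant of this side was miR-2377, with a mean of 1111 and the widest error, at -3.62 ± 1.46 in the authors' deposited table. The authors' deposited table put miR-656 at -1.27 ± 0.47, miR-2891 at -1.93 ± 0.74, miR-562 at -2.08 ± 0.81 and miR-29c at -2.44 ± 1.10. The other 4 were miR-3660 at -1.28 ± 0.59, miR-487a at -1.41 ± 0.65, miR-191 at -1.48 ± 0.69 and miR-744 at -1.06 ± 0.50 in the authors' deposited table. Of these, miR-191 is abundant in many tissues and had a mean of 393.

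A further 3 miRNAs had a fold change and a Wald statistic but no p in the authors' deposited table. In the authors' deposited table miR-450b stood at 2.81 ± 0.87 (mean 70.3), miR-323b-3p at -2.34 ± 0.83 (mean 228) and miR-6519 at -1.93 ± 0.82 (mean 55.5). A p computed here from the statistic of the authors' deposited table was 0.00122, 0.00488 and 0.0183 in that order. Why they carry no p is not stated.

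Next, the leading miRNAs were set beside those encoded near them. RefSeq genes of the cattle assembly ARS-UCD2.0 were matched to 958 of the 978 names, and 7 of the 20 leading miRNAs had another measured miRNA within 10 kb. Beside miR-365-3p at 2.02, the neighbouring miR-193b stood at -0.14 ± 0.69 and miR-2333 at -1.11 ± 0.83 in the authors' deposited table. Beside miR-489 at 2.69, miR-653 stood at -0.04 ± 0.59, and beside miR-98 at -2.51, let-7f stood at -0.75 ± 0.68 in the authors' deposited table. The 3 measured neighbours of miR-191 ranged from -0.22 to -0.07 in the authors' deposited table, all lower but close to 0. Of 14 measured neighbours of miR-656, 13 lay within 0.7 of 0, and the exception was miR-323b-3p. Whether neighbours share a transcript was not analysed here.

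The large imprinted cluster that holds miR-656, miR-487a and miR-323b-3p, expressed from the maternal chromosome in mammals, had 48 measured members with a mean of at least 10. Of these 27 were higher and 21 lower, with a median of 0.08. An unadjusted p under 0.05, which 4.67% of all miRNAs had, belonged to 3 of the 48 in the authors' deposited table: miR-656 and miR-487a, both lower, and miR-382, higher at 1.42 ± 0.69. The miR-17-92 cluster, which promotes cell proliferation, had 7 measured members, 2 higher and 5 lower, with a median of -0.32. Beside miR-450b at 2.81, its cluster partners miR-424-5p and miR-450a stood at 1.06 ± 0.85 and 0.07 ± 0.61 in the authors' deposited table, while miR-503-5p stood at -0.64 ± 0.67.

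Arms of the same hairpin were compared as well. Of 77 pairs with both arms measured, 39 had the same direction and 38 opposite directions, and the median absolute difference was 0.56. Of the 6 pairs with both arms at a mean of at least 100, 4 had the same direction. The widest gap in that set was in miR-151, where the 5p arm stood at -1.31 ± 0.69 and the 3p arm at -0.30 ± 0.48 in the authors' deposited table. The leader miR-365-3p at 2.02 had a 5p arm at 0.04 ± 0.45, and miR-2385-5p at 1.62 had a 3p arm at -0.48 ± 0.42, in the authors' deposited table.

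Families and marker lists likewise had 0 members past the threshold by the authors' Wald test, with the overall 4.67% of miRNAs at an unadjusted p under 0.05 as background. The germ cell miRNAs, miR-34b, miR-34c and the related miR-449 group, needed for late spermatogenesis in mice, were abundant, with miR-34c at a mean of 1914 in the authors' deposited table. The 5 members held 3.05% of the summed means, 2 were higher and 3 lower, and the median was -0.31. The abundant miR-449a stood at -1.13 ± 1.47 and miR-34b at 0.15 ± 0.49 in the authors' deposited table. In the miR-30 family 6 of 7 names were lower and the median was -0.46, led by miR-30d at -0.94 ± 0.64 and miR-30a-5p at -0.99 ± 0.53 in the authors' deposited table. Of 15 names from the miR-17-92 cluster and its paralogs, 12 were lower, and their median was -0.32. The let-7 family had 6 higher and 3 lower, with a median of 0.26 and 1 member, miR-98, at an unadjusted p under 0.05. miR-148a, miR-148b and miR-152 were all higher, with miR-152 at 1.21 ± 0.62 in the authors' deposited table. The other lists ranged in median from -0.52 for miR-15/16 to 0.73 for skeletal muscle, beside 0.01 for all miRNAs. The skeletal muscle median rests on 4 names, of which 2 had a mean of at least 10. Those were miR-206 at 0.50 ± 0.42 and miR-1 at -0.16 ± 0.75 in the authors' deposited table, while miR-133a and miR-133b had means of 4.29 and 4.37.

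Families shared with many tissues gave mixed directions. Of 8 names related to miR-10 and miR-125 5 were higher, with a median of 0.05. The abundant miR-100 stood at 0.16 ± 0.69 and miR-125b at 0.10 ± 0.55, per the authors' deposited table. The miR-15/16 group, which restrains cell division, had 3 of 8 names higher, with miR-424-5p at 1.06 ± 0.85 and miR-15b at -1.04 ± 0.61 by the authors' deposited table. In the miR-183, miR-96 and miR-182 cluster, miR-182 stood at -0.93 ± 0.46 and miR-183 at 0.52 ± 0.44, per the authors' deposited table. Among names tied to spermatogenesis 4 of 8 were higher, with a median of -0.02. Of these, miR-21-5p stood at -0.95 ± 0.72 and miR-184 at -0.87 ± 0.62, per the authors' deposited table.

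Of 119 miR-2284 and miR-2285 names with a fold change, 63 were higher and 56 lower, with a median of 0.10. Of 964 miRNAs with a p from the authors' Wald test, 45 (4.67%) had an unadjusted p under 0.05, 28 higher and 17 lower. In this family 8 of the 119 names did, of which 7 were higher and 1 lower in the authors' deposited table. Beside the leaders these were miR-2285bz at 2.32 ± 1.00, miR-2285df at 1.26 ± 0.57, miR-2285cz at 1.18 ± 0.56, miR-2285aa at 1.01 ± 0.48, miR-2284d at 1.75 ± 0.86 and miR-2285dl-3p at -4.24 ± 1.95 in the authors' deposited table. These 6 were named after their values were seen. The abundant miR-2284x, with a mean of 1446, stood at 0.22 ± 0.43 in the authors' deposited table.

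Each marker list of another cell type held a smaller share of the summed means than the 3.05% of the germ cell list. Leukocyte miRNAs held 0.43% of the summed means, epithelial 0.321%, stromal 0.317%, red blood cell 0.239%, skeletal muscle 0.156%, endothelial 0.0417% and liver 0.0334%. All 6 epithelial miRNAs, members of the miR-200 family and miR-205, were lower with a median of -0.18, and their fold changes ran from miR-200a at -1.14 ± 0.65 to miR-429 at -0.02 ± 0.48 in the authors' deposited table. Of 7 leukocyte names 5 were lower, with a median of -0.26 and miR-223 at -0.38 ± 0.49 in the authors' deposited table. The part of other cells in the fold changes was not tested, and the marker levels of each group are not separate in the table. In bulk RNA, fewer cells of a type and less RNA per cell cannot be told apart.

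**Figure D3:**
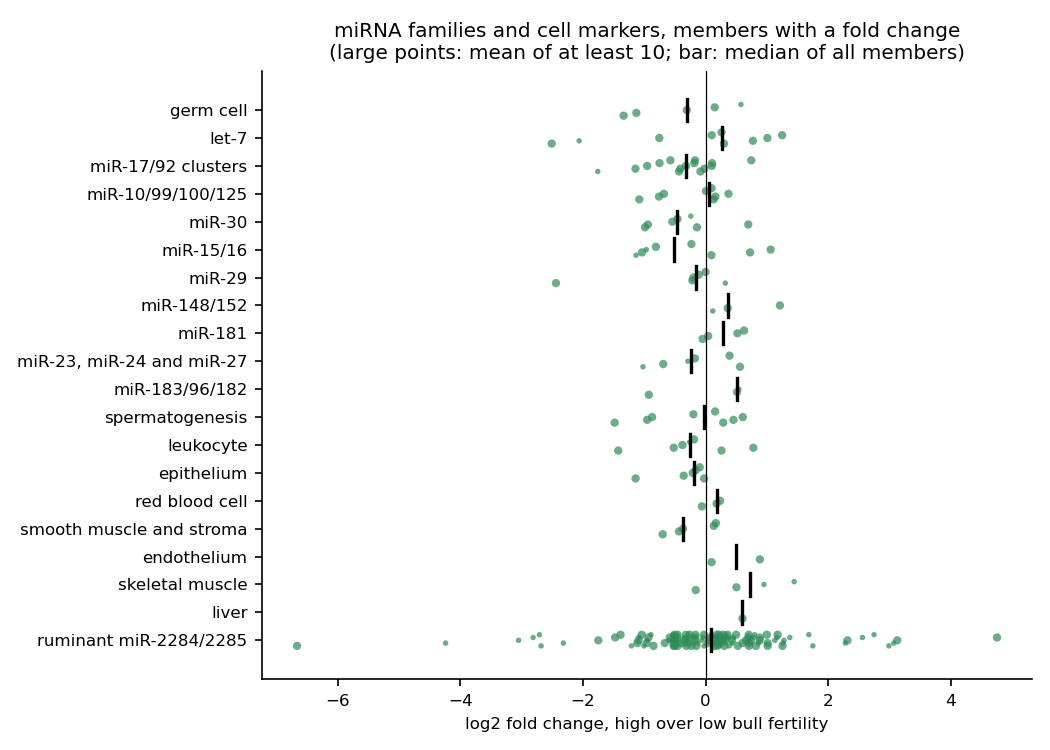
Log2 fold changes of high over low bull fertility for the members of 20 miRNA lists, where large points have a mean of at least 10 and bars are medians of all members. Medians lie between -0.52 (miR-15/16) and 0.73 (skeletal muscle, 4 names, 2 with a mean of at least 10), and members of most lists lie on both sides of 0.

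The tsRNA values came from 426 tRNA entries and 36817 tRX entries, a prefix given to tRNA-like loci of low confidence. Of these, 367 tRNA and 35967 tRX entries have rows for whole tRNAs, fragments of the 5′ end, the 3′ end or neither end, and antisense reads. The other 59 tRNA and 850 tRX entries have rows for precursor reads alone. Every group value could be divided, without remainder, by the worth of a single read in 1 of the 3 libraries of its group. In the high group it was the median in all 547 rows where all 3 libraries could be read, and for the low group no such check could be made. In the high bull fertility group, 1 read was worth 0.722 normalized counts in the library also labelled low for daughter fertility, 1.00 in that of bull fertility alone and 1.62 in that also labelled high for daughters. Steps of 0.528, 0.893 and 1.06 were found for the low bull fertility group. Many near-identical tRNA entries had equal or nearly equal values, so rows may hold the same reads and are not independent.

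5′ fragments of tRNAs made up 50.7% of the summed high group values and 58.4% of the low ones. 5′ fragments of tRX entries made up 36.0% and 28.7% in that order. A share also depends on the values of the other classes, so a larger share need not mean higher values. Of 1332 tRX rows of 5′ fragments with a mean of at least 10, 445 had a higher fold change and 887 a lower one. With the most abundant row of each isotype, anticodon and type alone, the tRNA 5′ shares were 71.3% and 75.8% and the tRX 5′ shares 18.8% and 13.9%. Within the 5′ tRNA signal, the glycine share was 27.6% in the high and 34.7% in the low group, and initiator methionine tRNAs, which start translation, gave 1.38% and 3.02%. Valine tRNAs gave 21.6% and 15.6%, glutamate tRNAs 19.8% and 19.3%, and histidine tRNA 15.0% and 13.9%. With the most abundant rows alone, histidine tRNA held 29.5% in the high and 25.6% in the low group, and glycine 26.1% and 34.1%. The valine share was higher in the high group by 6.01 percentage points over all rows and by 3.96 with the most abundant rows alone. The fold changes of valine 5′ rows did not share this direction. Of 23 with a mean of at least 10, 12 were higher and 11 lower, with a median of 0.01. The order of the isotypes therefore depends on how rows that may hold the same reads are counted. With 1 value per group, these shares carry no error and were not tested.

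Of 681 tRNA rows with a mean of at least 10, 472 had a fold change below 0 (457 by the group values alone), with a median of -0.18, against -0.01 for 3171 tRX rows and -0.04 for all 3852 rows. At a mean of at least 100 both kinds were mostly lower, 243 of 330 tRNA rows with a median of -0.22 and 488 of 688 tRX rows with a median of -0.17. In 123 of the 681 tRNA rows the group values and the fitted fold change had opposite signs. By fragment type, 150 of 206 rows of 5′ fragments were lower with a median of -0.14, beside 887 of 1332 tRX rows of 5′ fragments with a median of -0.15, and 148 of 176 rows of 3′ fragments were lower with a median of -0.35. Of 280 rows of neither end 162 were lower, with a median of -0.10. In the class with a mean of at least 10, 51 of 3802 rows (1.34%) had an unadjusted p under 0.05 in the authors' deposited table. Among them were 8 of the 666 tRNA rows with a p. All 8 were lower, as were 472 of the 681 tRNA rows of that class. The 8 include the nearly equal 5′ rows of tRNA-Gly-GCC-2, -7 and -8 and the equal precursor rows of tRNA-Gly-GCC-7-1 and -8-1. Both ends of tRNA-Gly-CCC-36 are also in the set, so these are not 8 separate sources.

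**Figure D4:**
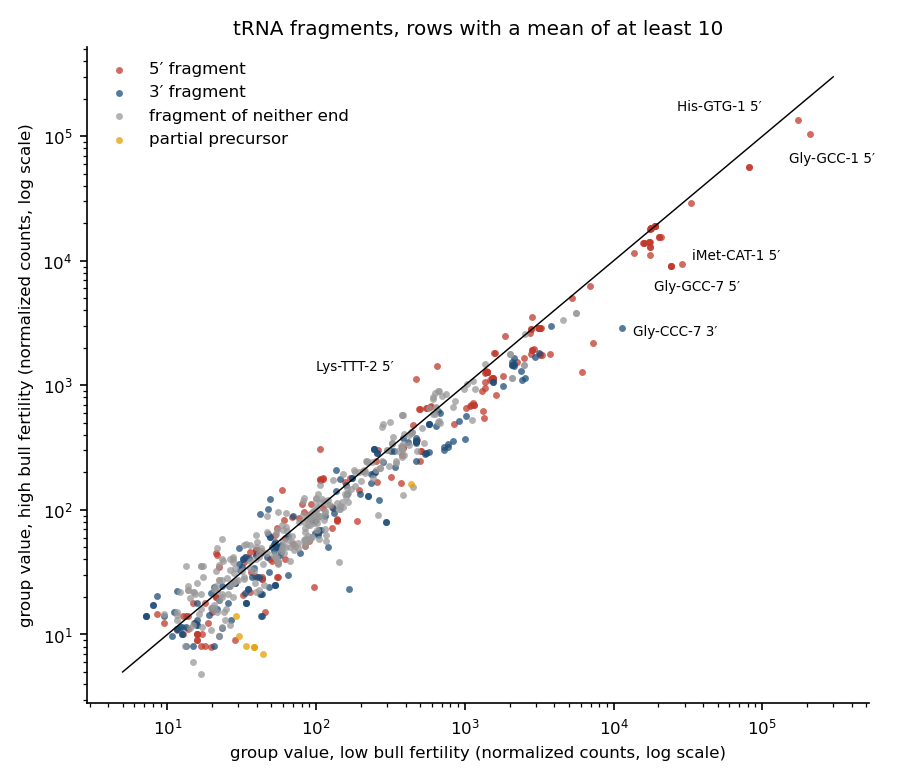
Group values of tRNA rows with a mean of at least 10 in high (vertical) against low (horizontal) bull fertility samples, in normalized counts on log axes, coloured by fragment type, with the line of equal values. Of 681 rows 472 had a fitted fold change below 0, and the 5′ fragment of tRNA-Gly-GCC-1 stands at 104369 against 209620.

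Fragments of glycine tRNAs, the isotype with the highest summed 5′ values, were mostly lower, though not to the same degree in all members. All 20 rows of 5′ glycine fragments with a mean of at least 10 had a negative fold change (19 by the group values), with a median of -0.59. An unadjusted p under 0.05, which 1.34% of all rows in that class had, belonged to 4 of the 20. These 4 include the rows of tRNA-Gly-GCC-2, -7 and -8, which had nearly equal values and may hold the same reads. The 10 rows of 3′ glycine fragments were lower by both measures, with a median of -0.71. The most abundant, tRNA-Gly-GCC-1 5′, had group values of 104369 in the high and 209620 in the low group in the authors' deposited table. Each value came from a single library, with 104212 and 198193 reads of this fragment. Its fold change was -1.17 ± 0.68, where the SE is that implied by the authors' deposited table's fold change and p. A near-identical set, the 5′ fragments of tRNA-Gly-GCC-2, -7 and -8, stood at about -1.42 ± 0.70, where the authors' deposited table has an unadjusted p of 0.042. Their group values, such as 9052 and 24265 for tRNA-Gly-GCC-7, came from 9038 and 27161 reads in the library that gave each value.

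Another part of the glycine set lay near 0. tRNA-Gly-GCC-5 5′ stood at -0.05 ± 0.76 in the authors' deposited table, with 13892 in the high and 16029 in the low group. Its high group held a library at 20997, the one also labelled low for daughters, so the groups overlapped. For tRNA-Gly-CCC-1 5′ the authors' deposited table gave -0.20 ± 0.66 and for tRNA-Gly-CCC-3 5′ -0.09 ± 0.65. At the other end, tRNA-Gly-CCC-7 5′ stood at -1.54 ± 0.87 and its 3′ fragment at -1.65 ± 0.88 in the authors' deposited table. The 3′ fragment of tRNA-Gly-CCC-36 stood at -2.45 ± 0.99 and its 5′ fragment at -2.04 ± 0.99, with group values of 23.0 against 165 and 24.0 against 96.2 in the authors' deposited table.

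All 7 rows of partial tRNA precursors with a mean of at least 10 belonged to glycine tRNAs, and all were lower by both measures, with a median of -1.53. The most abundant, tRNA-Gly-GCC-1-6, had 160 in the high and 436 in the low group and a fold change of -1.57 ± 0.83 in the authors' deposited table. Of these 7 rows, tRNA-Gly-GCC-7-1 and tRNA-Gly-GCC-8-1 had equal values, 7.94 and 38.0 in the authors' deposited table. These came from 11 and 72 reads in the library that gave each value.

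Initiator methionine tRNA gave lower values in all 3 of its 5′ rows. tRNA-iMet-CAT-1 5′ had 9421 in the high and 28743 in the low group, a fold change of -1.51 ± 0.85, in the authors' deposited table. For tRNA-iMet-CAT-2 5′ the values were 2186 and 7319 at -1.34 ± 0.75 in the authors' deposited table, and for tRNA-iMet-CAT-3 5′ 843 and 1610 at -0.87 ± 0.88. Fragments of neither end from tRNA-iMet-CAT-1 stood at -1.48 ± 0.94 in the authors' deposited table. Selenocysteine tRNA, which reads a stop codon as selenocysteine, was lower in all 3 fragment types. tRNA-SeC-TCA-1 gave -1.15 ± 0.75 for 5′, -1.09 ± 0.82 for 3′ and -1.51 ± 0.72 for neither end in the authors' deposited table.

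Histidine, glutamate, valine and leucine tRNAs were the other abundant sources of 5′ fragments. tRNA-His-GTG-1 5′ had 136015 in the high and 173326 in the low group, at -0.48 ± 0.70, in the authors' deposited table. The high group library also labelled low for daughters stood at 202607, above the low group value. tRNA-Glu-CTC-1 5′ stood at -0.49 ± 0.70 with 56367 and 81199, and tRNA-Val-CAC-2 5′ at -0.03 ± 0.69 with 19006 and 19018, in the authors' deposited table. Of 14 rows of 5′ leucine fragments all 14 were lower, also by the group values, with a median of -0.85. tRNA-Leu-AAG-1 5′ stood at -1.19 ± 0.92, while tRNA-Leu-CAG-1 5′ stood at -0.16 ± 0.78 in the authors' deposited table. For the latter the library also labelled low for daughters had 29532, against group values of 13019 and 17647.

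Less abundant isotypes had values on both sides. tRNA-Lys-CTT-2 5′ had 11189 in the high and 17683 in the low group at -0.53 ± 0.77, and tRNA-Ser-TGA-1 5′ had 2874 and 3231 at -0.09 ± 0.62, by the authors' deposited table. For tRNA-Arg-CCG-2 3′ the authors' deposited table gave 2975 and 3802 at -0.29 ± 0.75. tRNA-Ala-AGC-1 5′ had 1283 in the library of bull fertility alone, 2667 in that also low for daughters and 1070 in that also high for daughters, against a low group value of 1406. Its fitted fold change was 0.14 ± 0.69 in the authors' deposited table, although the group values gave -0.13. All 12 rows of 3′ valine fragments had a negative fold change, 9 of them by the group values too, with a median of -0.63. tRNA-Met-CAT-2 3′, from the elongator methionine tRNA, had 1647, 3708 and 1012 in those 3 libraries against 2144. Its fitted fold change was 0.16 ± 0.76 by the authors' deposited table, although the group values gave -0.38. In both fragments the high libraries lay on either side of the low group value.

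Some families were higher. All 19 rows of glutamine fragments of neither end were higher by both measures, with a median of 0.30, and all 8 such tyrosine rows (7 by the group values), with a median of 0.34. tRNA-Gln-CTG-4 of neither end had 508, 673 and 243 in the 3 high libraries (bull fertility alone, also low for daughters, also high for daughters) against a low group value of 312. The last of these high libraries lay below it, so the groups overlapped. 5′ fragments of lysine tRNAs went both ways, with 9 of 17 rows lower and a median of -0.03. Among these lysine rows, the largest fold changes above 0 were those with the anticodon TTT. tRNA-Lys-TTT-1 5′ had 1423, 827 and 2517 in the same order of libraries against 654 in the low group, at 1.25 ± 0.77 in the authors' deposited table. All 3 high libraries lay above that value, which came from 732 reads in 1 low library. The other low libraries could not be read, so the groups may still overlap. tRNA-Lys-TTT-2 5′ had 1121, 449 and 2331 against 473, at 1.59 ± 0.94 in the authors' deposited table, and there 1 high library lay below the low group value. For tRNA-Lys-TTT-13 5′ the fitted fold change was 1.31 ± 1.09 in the authors' deposited table. Its group values went the other way, with 56.6 in the high and 89.3 in the low group. Of 18 rows of 5′ glutamine fragments 11 were lower, with a median of -0.19, and their summed values, over all 23 rows, were 8378 in the high and 11824 in the low group. Against that direction, tRNA-Gln-TTG-2 5′ had 143 in the high and 59.2 in the low group at 1.36 ± 0.86, and tRNA-Gln-TTG-3 5′ had 307 and 106 at 1.21 ± 0.96, by the authors' deposited table. The remaining higher tRNA rows leading by p were fragments of neither end. These were tRNA-Gln-CTG-12 at 1.41 ± 0.86, tRNA-Val-CAC-8 at 0.94 ± 0.75 and tRNA-Thr-AGT-9 at 1.04 ± 0.85 in the authors' deposited table.

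**Figure D5:**
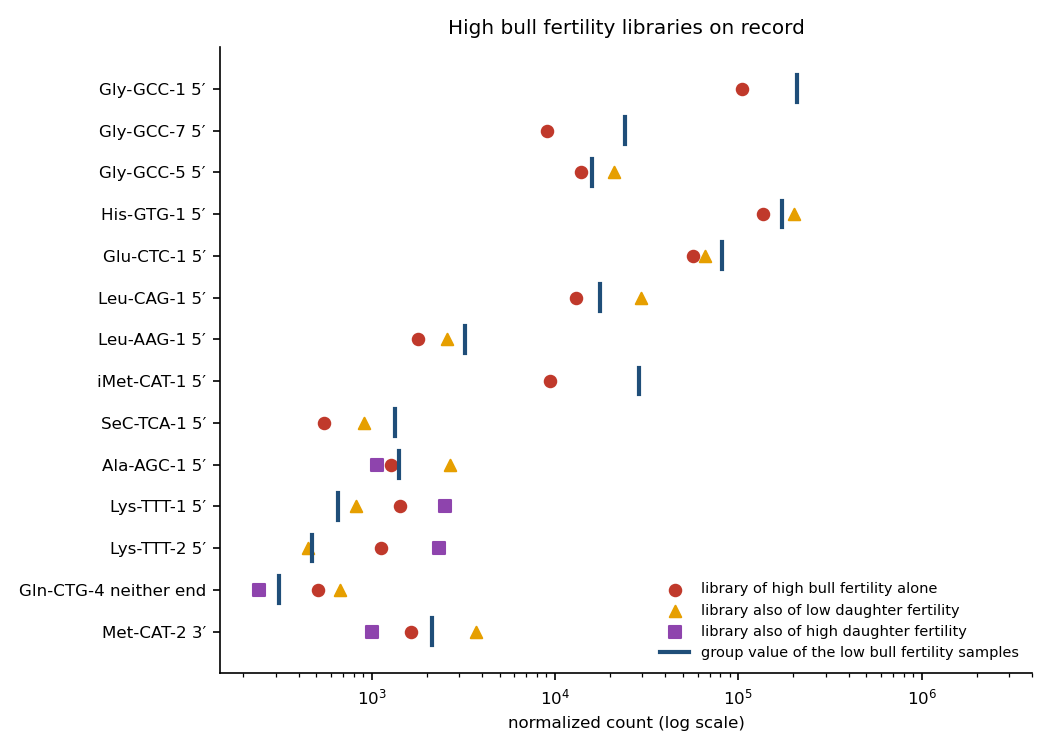
Normalized counts (log axis) of 14 tRNA fragments in the high bull fertility libraries whose values could be read (symbols by library) and the group value of the low bull fertility samples (bars). In tRNA-Lys-TTT-1 5′ all 3 high libraries, at 827 to 2517, lie above the low group value of 654. For tRNA-His-GTG-1 5′ the 2 readable high libraries lie on either side of the low group value. Low libraries other than the one that gave the group value could not be read, so no row shows the groups apart.

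The high bull fertility libraries differed from each other. Among 137 rows of tRNA 5′ fragments with a mean of at least 100, the library of bull fertility alone gave the group value in 96 rows, the one also labelled high for daughters in 27 and the one also labelled low for daughters in 14. For the low bull fertility group the 3 libraries gave it in 46, 43 and 48 rows. At least 2 high libraries could be read in 45 of the 137 rows, and 27 of these showed an overlap of the groups. All 3 could be read in only 12 rows, so rows without a shown overlap may still have one. In 36 rows the library also labelled low for daughters stood above the high group value, and in 4 below it. A library could be read only where it gave the value of a bull or daughter fertility group, so these rows are a selected set. The 143 readable tRNA rows of all types had an overlap in 66, and the 547 readable tRX rows of that abundance in 158. What the separate daughter labels contribute to these values was not tested.

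tRX rows differed in direction between abundance classes. Mostly lower at a mean of at least 100, they had a median near 0 among the most abundant. Of 165 with a mean of at least 1000, 114 were higher, with a median fold change of 0.02. Of 119 tRNA rows of that abundance, 93 were lower. Many of the 165 tRX rows had nearly equal values and may hold the same reads, so they are not 165 separate results. Group values and the fitted fold change had opposite signs in 36 of these tRX rows and in 21 of the tRNA rows. The most abundant, tRX-Val-NNN-138 5′, had 18221 in the high and 17769 in the low group, at 0.03, in the authors' deposited table. Among these 165 rows the fold changes ran from tRX-Gly-NNN-102 5′ at -1.39, with an unadjusted p of 0.0375, to tRX-Glu-NNN-5008 5′ at 0.50 in the authors' deposited table. tRX rows of neither end were higher in 852 of 1266 cases with a mean of at least 10, with a median of 0.21. The leading tRX rows by p rested on few reads. tRX-Cys-NNN-133187 of neither end stood at 4.19 ± 1.30 in the authors' deposited table, from 40 reads in the high and 1 in the low library that gave the group values. tRX-Val-NNN-45 5′ stood at -3.30 ± 1.34 in the authors' deposited table, from 4 and 462 reads. Also leading above 0 were tRX-Gly-NNN-1123 5′ at 3.44 ± 1.13 and the antisense rows of tRX-Cys-NNN-72498 at 3.30 ± 1.15 and tRX-Cys-NNN-63806 at 3.23 ± 1.14. Also leading below 0 were tRX-Cys-NNN-124154 of neither end at -2.29 ± 0.96 and the antisense rows of tRX-Cys-NNN-8186 at -2.73 ± 1.16 and tRX-Gly-NNN-22322 at -2.71 ± 1.15.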

How the data were processed

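Small RNA of 3 high and 3 low bull fertility sperm samples was sequenced after library preparation, per the labels' protocols. The submitters' processing notes name Trimmomatic 0.39 and DESeq2 1.34.0. No aligner, build or counting rule is given in these sources. Members and lists were chosen with earlier results of these data known.

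The authors' deposited tables hold comparisons and group values, not counts per sample, so nothing could be refitted. For miRNAs the deposited columns are a signal (the mean normalized count), a log2 fold change and its SE, a score (the Wald statistic), and both p-value kinds, per the file headers. For tsRNAs they are a log2 fold change, a p-value and a normalized signal per group, per the file headers. Which samples entered the tsRNA p-values is not stated.

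The miRNA sign was turned to high over low, by inference. miR-2285ab and miR-2285dc have means in 1 ratio (0.879) between the bull and daughter tables, as reads in 1 shared library would give. The libraries in both comparisons belong to the high bull group, and the deposited values are -1.27 and -3.07. tsRNA p-values were adjusted here (Benjamini-Hochberg) over all rows with a p. tsRNA SEs were derived from fold change and p, and intervals use 1.96 SE. Each group value was divided by the value of 1 read in a library (tolerance 1e-06), and steps shared with the daughter columns name the high libraries. In 547 of 547 rows with all 3 high libraries read, the group value was their median. Total reads are unknown. There were 0.618 to 1.39 reads per normalized count in the high and 0.945 to 1.89 in the low libraries.

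Chosen by rule were the 12 most abundant miRNAs, the 10 leading by p in each direction, the 6 of smallest SE and up to 4 per list. Not all of the list members are described above. The tRNA rows chosen by rule were the 8 leading by p in each direction and the leading row of each isotype and type with a share of at least 1%. The tRX rows were the 4 leading by p in each direction. The largest changes at a mean of at least 1000 were added from both. Of these, tRNA-Glu-CTC-2 of neither end (-0.63 ± 0.76) and tRNA-Lys-CTT-1 3′ (-0.39 ± 0.79) are given here alone. So are tRX-Glu-NNN-4837 5′ and tRX-Glu-NNN-7522 5′, both at 0.50. Other fragments of the same families were named after their values were seen. Python 3.11.15, pandas 2.3.3 and scipy 1.17.1 were used, with routines tested on simulated data.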

Additional observations from a re-analysis of the deposited data

How the results depend on the processing

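No count of miRNAs or tsRNAs past the threshold moved from 0 under any alternative run: adjustment over means of at least 10 or 100, a p from every Wald statistic, a threshold of 0.1, tRNA entries alone, or equal rows once. The smallest adjusted p was 0.146 for miRNAs with a mean of at least 10 and 0.658 at 100 or more. The share of miRNAs with an interval within 1 log2 unit of 0 was 5.58% for all and 16.5% with a mean of at least 100, where errors are smaller. The difference in the share of tRNA 5′ fragments, high minus low, was -7.68 percentage points over all rows and -4.44 with the most abundant row of each isotype, anticodon and type. For the glycine share of 5′ fragments it was -7.07 and -8.06. Group values had the opposite sign of the fitted fold change in 123 of 681 tRNA rows and 660 of 3171 tRX rows with a mean of at least 10. Of the named fragments tested with a pseudocount these were tRNA-Lys-TTT-13 5′ (1.31 fitted, -0.65 with a pseudocount of 1 and -0.58 with 10) and tRNA-Ala-AGC-1 5′ (0.14 fitted, -0.13 with either). The cause was not tested. No paired analysis was possible because the tables hold no values per sample, and for the same reason no replicate could be left out and DESeq2 or edgeR could not be rerun. Depth limits the leading tRX rows, which rest on few reads.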
